A study of Homo sapiens with 3 samples.

Results

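The unfolded protein response and the integrated stress response were followed through 44 genes on 3 short-oligonucleotide arrays. The cells carry the label HepG2, an established line from a human liver tumour. The genes were taken from a fixed list, and each was read by 1 probe set, the one with the highest mean log2 signal over the 3 arrays among those annotated with that gene symbol alone. Such a probe set was found for 43 of the 44, out of 19775 genes in all. SYVN1, the ubiquitin ligase of endoplasmic reticulum (ER) degradation, had none and was not analysed here. The list was divided into an ER branch of 23 genes (chaperones, sensors, degradation factors) and an ATF4 branch of 21 genes (stress transcription factors and ATF4 targets).

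The cells were stably transfected, were grown in medium with fetal bovine serum, and gave 1 array per vector. The array called ORF here came from cells with the open reading frame of Hsp27 in a vector and is titled IRES2-HSP27. The array called shRNA came from cells with an Hsp27 short hairpin vector, although its title, HSP27-SiRNA, names an siRNA. The third, from cells with a control vector, is titled EGFP-NC. Whether each culture was 1 clone or a pool is not given in the sources used here. With 1 array per group no difference has a replicate check, no p-value is given, and every comparison is between arrays and not between conditions.

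Proteins that enter the ER are folded there by chaperones and by enzymes that form disulphide bonds. When unfolded proteins build up, the sensors IRE1 (gene ERN1), ATF6 and PERK (gene EIF2AK3) are activated: IRE1 splices the XBP1 mRNA, cleaved ATF6 acts as a transcription factor, and PERK phosphorylates the translation factor eIF2 alpha. That phosphorylation, which other kinases also carry out on amino acid shortage, haem shortage or viral RNA, is the core of the integrated stress response. It slows general translation but favours translation of the ATF4 mRNA, and ATF4 then induces genes for amino acid supply, redox balance and, through CHOP (gene DDIT3), cell death. In secretory liver cells the ER branch is known to keep pace with the load of secreted proteins. Phosphorylation, splicing of XBP1 and translation of ATF4 are not measured by probe-set signals, so the values below are mRNA levels only.

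Promoter sequences are shown first, because elements in them are known to be bound by ATF6 and XBP1 in ER chaperone genes and by ATF4 in its targets. RefSeq promoter windows of GRCh38.p14, running from 250 bases before to 50 bases after a start, were matched by symbol for 39 of the 44 members, with 54 windows in all. Both strands were searched for the ER stress element (ERSE: CCAAT, a gap of 9 bases, CCACG), ERSE-II (ATTGG, any 1 base, CCACG), the unfolded protein response element (UPRE, TGACGTGG) and the core of the C/EBP-ATF response element bound by ATF4 (CARE, TGATGNAA). Capitals mark the fixed letters of each match, and each stretch reads 5′ to 3′ on the strand of the gene. Of the members with a match that lies wholly before the start, 8 are printed: HSPA5 as the standard example of an ERSE promoter, 4 members whose levels are given in full below, and 3 others.
HSPA5: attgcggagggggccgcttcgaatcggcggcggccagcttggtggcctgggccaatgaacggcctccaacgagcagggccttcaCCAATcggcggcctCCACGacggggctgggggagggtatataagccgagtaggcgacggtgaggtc
HYOU1: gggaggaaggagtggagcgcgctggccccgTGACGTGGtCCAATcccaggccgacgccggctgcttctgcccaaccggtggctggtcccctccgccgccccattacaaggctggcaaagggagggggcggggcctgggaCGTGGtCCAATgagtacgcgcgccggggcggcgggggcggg
HERPUD1: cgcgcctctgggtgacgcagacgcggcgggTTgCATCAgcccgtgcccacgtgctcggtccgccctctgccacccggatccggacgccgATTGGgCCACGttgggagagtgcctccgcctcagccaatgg
CALR: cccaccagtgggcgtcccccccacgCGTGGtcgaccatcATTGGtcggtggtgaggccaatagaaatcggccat
CANX: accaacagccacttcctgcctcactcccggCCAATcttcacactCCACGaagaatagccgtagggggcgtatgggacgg
ASNS: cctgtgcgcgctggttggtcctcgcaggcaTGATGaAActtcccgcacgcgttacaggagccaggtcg
CHAC1: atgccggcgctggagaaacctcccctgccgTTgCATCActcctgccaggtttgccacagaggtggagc
ATF3: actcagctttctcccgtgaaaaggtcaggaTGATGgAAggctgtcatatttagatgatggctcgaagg
In GRCh38.p14 these stretches, all upstream of a RefSeq start, are HSPA5 at chr9:125241344-125241493 (minus strand), HYOU1 at chr11:119057244-119057423 (minus strand), HERPUD1 at chr16:56931936-56932065 (plus strand), CALR at chr19:12938359-12938432 (plus strand), CANX at chr5:179698748-179698826 (plus strand), ASNS at chr7:97872439-97872506 (minus strand), CHAC1 at chr15:40953232-40953299 (plus strand) and ATF3 at chr1:212565186-212565253 (plus strand).

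An ERSE was found in at least 1 window of 7 of the 22 ER branch members with a window (HSPA5, HSP90B1, CALR, CANX, PDIA6, CRELD2 and XBP1) and in 0 of the 17 ATF4 branch members, against 0.0916% of all 27305 genes with a window. ERSE-II was found in 3 ER branch members (HYOU1, HERPUD1 and SDF2L1), 0 ATF4 branch members and 0.0696% of all genes. The UPRE was found in HYOU1 alone, where it overlaps an ERSE-II on the other strand, against 0.927% of all genes. The CARE core was found in 4 ATF4 branch members (ASNS, ATF3, CHAC1 and SLC3A2), in 1 ER branch member (HERPUD1) and in 4.46% of all genes. The SLC3A2 match lies after the start. A match describes the letters of this window, and its absence elsewhere says nothing about the factor. Since the elements are known from genes of these kinds, the shares describe the list and are no independent test. On the arrays, the 10 members with an ERSE or ERSE-II had log2 ratios from −0.20 (SDF2L1) to 0.02 (XBP1) for ORF against control, with a median of −0.087. For shRNA against control they ran from −0.32 (HERPUD1) to 0.20 (XBP1), with a median of −0.10. The 5 members with a CARE core ran from −0.20 (HERPUD1) to 0.10 (CHAC1) and from −0.32 (HERPUD1) to 0.28 (ATF3). In the chosen probe sets, no member with any of these motifs reached a 1.5-fold difference. XBP1 and ATF3 did in another probe set, as given below.

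**Figure D1:**
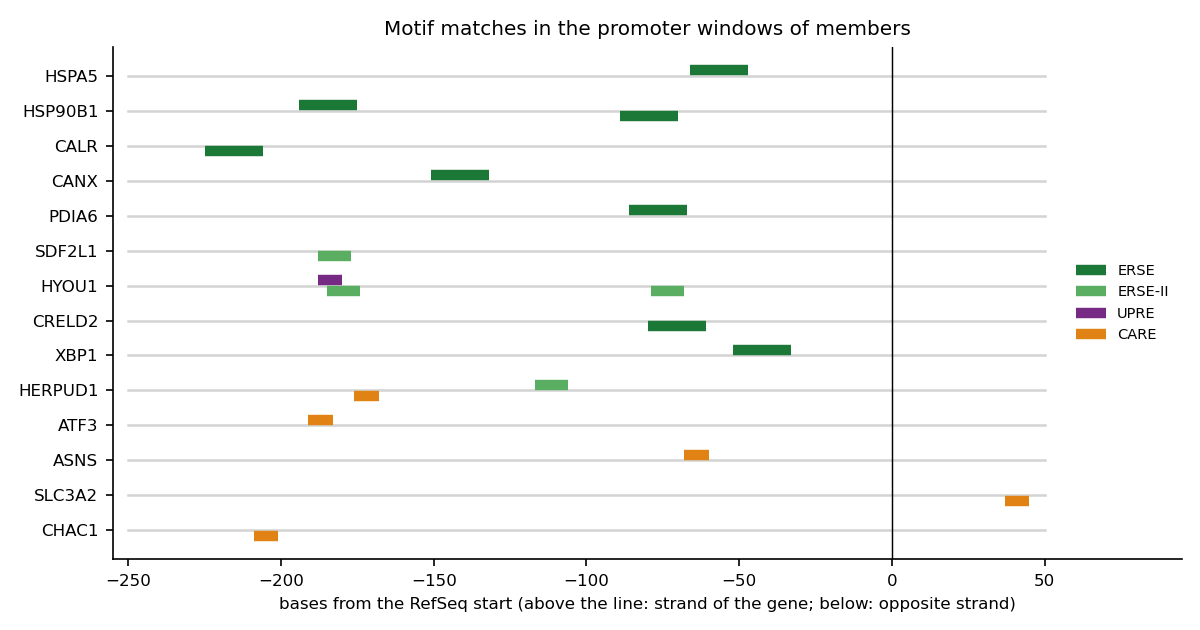
Positions of the motif matches in the promoter windows of 14 members, in bases from the RefSeq start at 0; bars above a line are on the strand of the gene and bars below it on the opposite strand. ERSE and ERSE-II matches (green) sit in ER branch promoters, and CARE matches (orange) in 4 ATF4 branch promoters and that of HERPUD1.

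The target of the vectors, HSPB1 (which encodes Hsp27), had a log2 signal of 13.11 under the ORF label, 13.03 under shRNA and 13.25 under control. The order does not follow the labels, since the control was highest, so every direction below rests on the labels alone. The hepatocyte label was not borne out by its markers either: of 9 hepatocyte markers with a probe set, 1 had a mean above the floor and 0 had a high mean signal (both defined below). A high mean signal was found for 3 of 7 fibroblast and stellate cell markers, 0 of 4 leukocyte markers and 0 of 4 endothelial markers. The log2 of the summed linear signal of each list ranged over the 3 arrays from 8.26 to 8.49 for hepatocyte, 13.35 to 13.66 for fibroblast and stellate, 7.17 to 8.20 for leukocyte and 7.48 to 7.95 for endothelial markers. Their part in the results below was not tested. For ACTB, whose 3′ and 5′ probe sets show how intact the RNA was, the linear ratio of 3′ over 5′ signal was 2.40 on ORF, 2.23 on shRNA and 2.70 on control. For GAPDH it was 0.939, 0.900 and 0.930. The control array, on which most ER branch members read highest, thus had the highest ACTB ratio, and the part of this in the results was not tested.

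All values are log2 signals of a probe set, and a difference of 1 is 2-fold. Signals under the floor, the pooled median of all probe sets (5.93, linear 60.8), were raised to it before ratios were taken. A signal is called high at or above the pooled 75th percentile (8.63). Each ratio is set beside a probe-set noise SD, the spread between log2 ratios of probe sets of the same gene at like signal, which leaves out all variation between cultures. Brightness depends on the probes, so no gene's level is ranked against another's. All 43 measured members passed the floor, 41 of them on all 3 arrays, and 38 had a high mean signal, among them all 22 of the ER branch. NUPR1 and VLDLR passed it on ORF and shRNA but not on control, so they had to be higher than control on both.

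Few of the stress response genes differed by 1.5-fold between the arrays. In ORF against control, 0 of 43 members were at least 1.5-fold higher (3.04% of all 12664 genes above the floor) and 1 was at least 1.5-fold lower, DDIT3 (2.82% of all genes). In shRNA against control, 0 were higher (3.59% of all genes) and 1 was lower, PCK2 (3.3%). In ORF against shRNA, 1 was higher, again PCK2 (2.64%), and 0 were lower (2.68%). The 2 members past this fold in any comparison, 4.65% of the 43, stand against 12.1% of all genes. DDIT3 was not of high mean signal. Of the 38 members of high mean signal 1 passed the fold, PCK2, where 4.48% of the 7849 genes of high mean signal did.

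Differences were also counted by noise. In ORF against control 3 of 43 members (6.98%) differed by at least 2 noise SD, 0 higher (5.78% of all genes) and 3 lower (5.91%: P4HB, ATF4 and DDIT3), where 11.7% of all genes and 13.8% of those of high mean signal differed. In shRNA against control 6 members (14%) did, 1 higher (4.53%: SLC7A11) and 5 lower (4.35%: MANF, HERPUD1, ATF4, TRIB3 and PCK2), where 8.88% of all genes and 10.0% of those of high mean signal differed. In ORF against shRNA it was 7 members (16.3%), 5 higher (4.48%) and 2 lower (4.67%), against 9.14% and 10.1%. Without replicate arrays these shares have no test, and the noise SD is no measure of how cultures vary. The median range over the 3 arrays was 0.23 for the members and 0.24 for all genes.

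**Figure D2:**
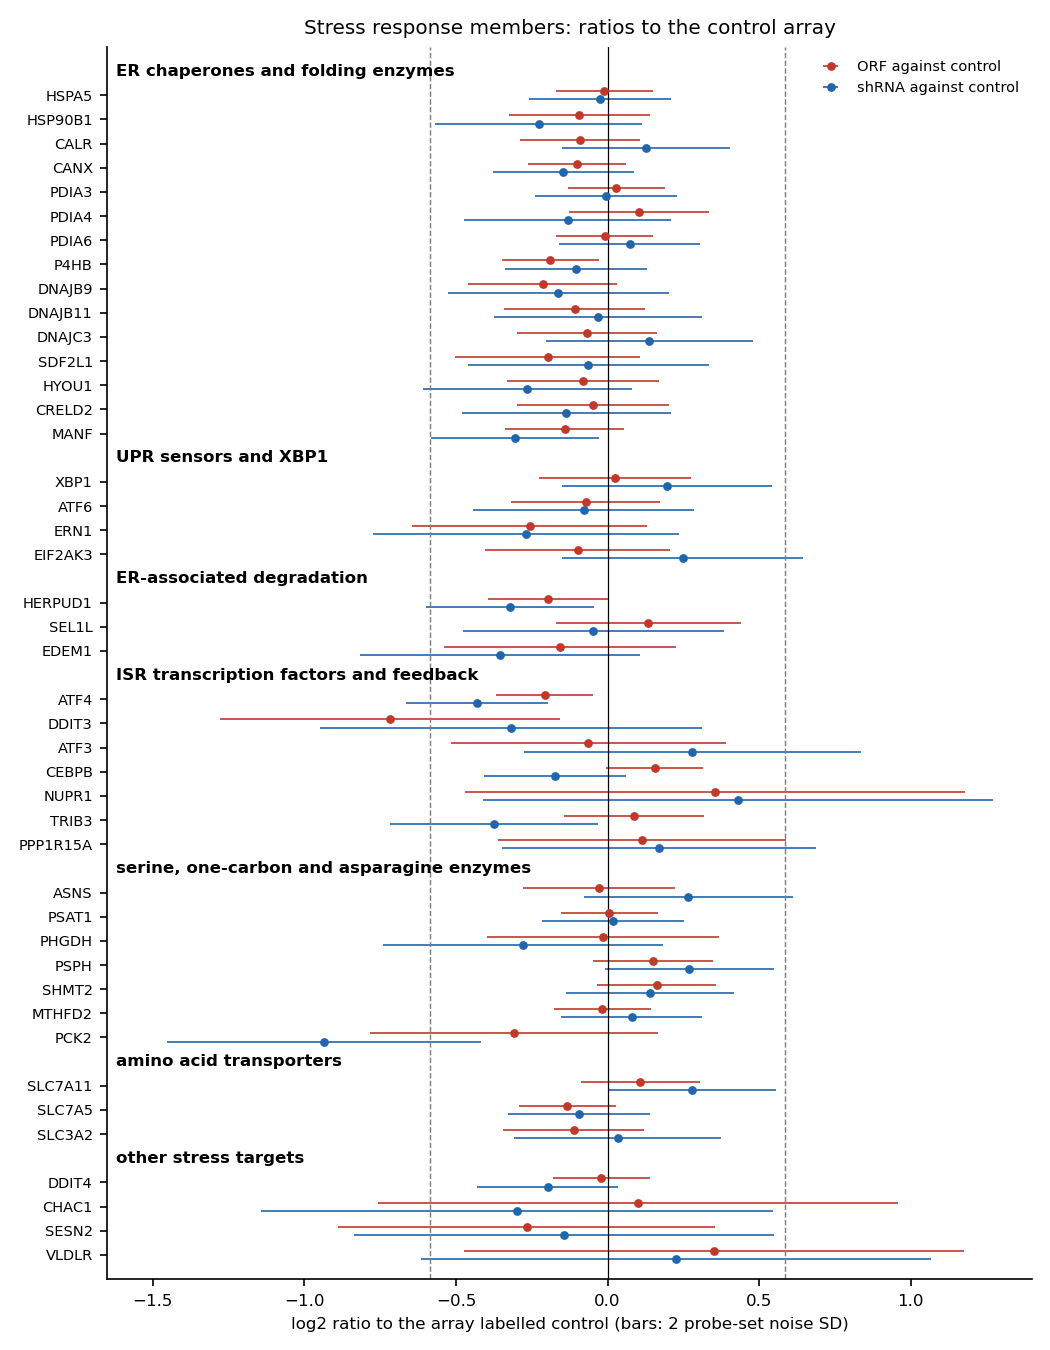
Log2 ratio of each of the 43 measured members to the array labelled control, by role, for ORF (red) and shRNA (blue); bars are 2 probe-set noise SD and dashed lines mark 1.5-fold. Only DDIT3 for ORF and PCK2 for shRNA lie beyond a dashed line.

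**Figure D3:**
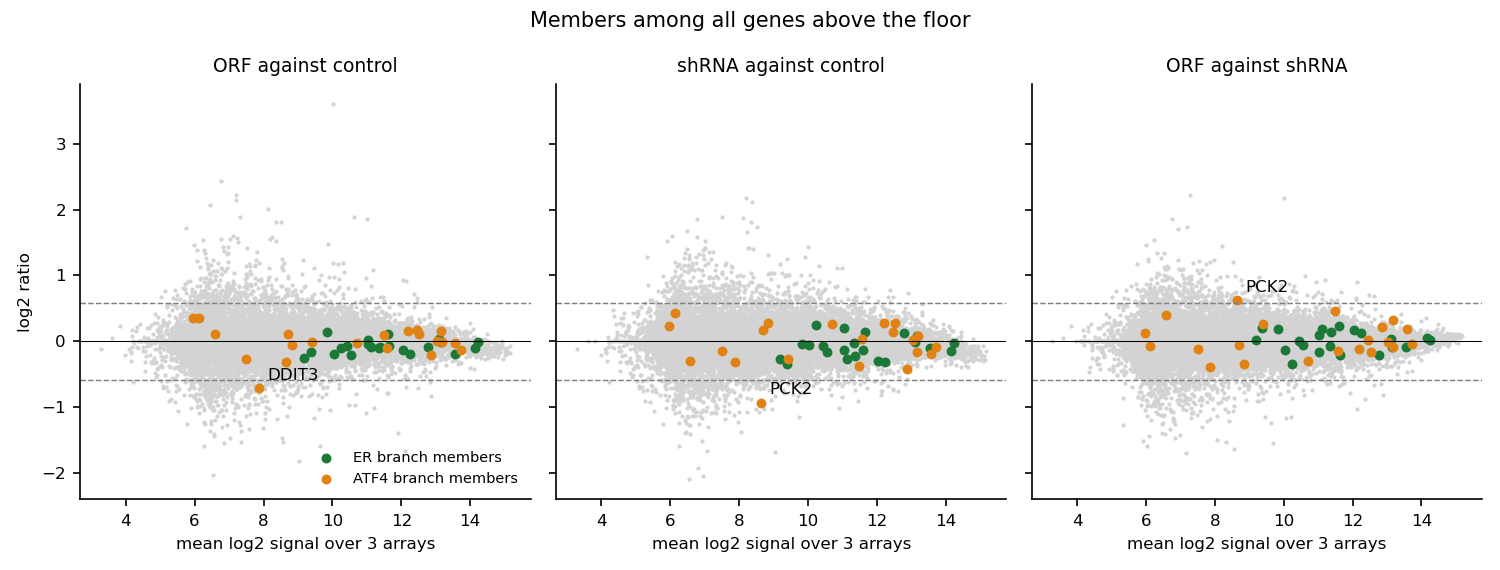
Log2 ratio against mean log2 signal for all 12664 genes above the floor (grey), with the ER branch (green) and ATF4 branch (orange) members, in the 3 comparisons; dashed lines mark 1.5-fold. The members lie within the range of all genes at their signal, and DDIT3 and PCK2 are the only named points beyond 1.5-fold.

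The ER chaperones and folding enzymes were nearly level. HSPA5 (BiP, the HSP70 chaperone of the ER and the most used marker of the unfolded protein response) read 14.24 on ORF, 14.22 on shRNA and 14.25 on control. Its 3 arrays thus lay within 0.024 of each other, well under its noise SD of 0.117 for shRNA against control. PDIA3, a disulphide isomerase of the calnexin cycle, lay within 0.034, with 13.13, 13.09 and 13.10. Over the 15 genes of this role the median log2 ratio was −0.092 for ORF against control and −0.10 for shRNA against control, and the single values ran from −0.21 (DNAJB9) to 0.10 (PDIA4) and from −0.31 (MANF) to 0.14 (DNAJC3).

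Apart from MANF and P4HB, the chosen probe sets of the chaperones differed by less than 2 noise SD in each comparison. Other probe sets passed it for CANX (0.27 for ORF against control, noise SD 0.080) and PDIA6 (0.36 for shRNA against control, noise SD 0.117). So did one for DNAJB9 (−0.74 for ORF against control, noise SD 0.258). In the chosen probe sets 10 of the 15 were highest on control and 0 lowest there, but the full order of the 3 arrays varied. The lectin chaperones of newly made glycoproteins are an example: CALR, the soluble one, read 12.67 on ORF, 12.89 on shRNA and 12.76 on control, and CANX, its membrane-bound counterpart, read 14.13, 14.09 and 14.23. CALR was thus highest on shRNA and CANX lowest there, and both carry an ERSE. HSP90B1 (GRP94, the HSP90 of the ER) read 11.39, 11.25 and 11.48, and the disulphide isomerase PDIA4 read 11.71, 11.48 and 11.61. Both were lowest on shRNA. Among the J-domain partners of BiP, DNAJB9 read 10.46, 10.51 and 10.67, DNAJB11 read 11.28, 11.36 and 11.39, and DNAJC3 read 11.56, 11.76 and 11.62. ORF was lowest in all 3, and DNAJC3 was highest on shRNA. CRELD2, SDF2L1 and PDIA6 spanned 0.136, 0.198 and 0.082 over the arrays.

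The widest differences of the role were in MANF and HYOU1. MANF, a small ER protein secreted on ER stress, read 12.04 on ORF, 11.88 on shRNA and 12.19 on control. Control was highest and shRNA lowest, a log2 ratio of −0.31 (noise SD 0.139). HYOU1, an exchange factor for BiP, read 11.15, 10.97 and 11.24 in the same order, with a ratio of −0.27 for shRNA against control (noise SD 0.173). Both orders are alike, but only the MANF difference exceeded 2 noise SD. In ORF against control P4HB, a disulphide isomerase, was the single member of the ER branch whose chosen probe set passed 2 noise SD. It read 13.45 against 13.64 (ratio −0.19, noise SD 0.080). Its 2 other probe sets gave 0.035 and 0.14, on the other side of 0.

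Of the sensors, EIF2AK3 (PERK) differed most. It read 10.10 on ORF, 10.44 on shRNA and 10.20 on control, so shRNA was highest, and ORF against shRNA came to −0.35 (noise SD 0.171). ERN1 (IRE1) read 9.11, 9.10 and 9.37, with control highest and ratios of −0.26 and −0.27 to control (noise SD 0.193 and 0.252). Read as the median of its probe sets, ERN1 had ratios to control of 0.011 and 0. The ratio of 0 came from a probe set under the floor on shRNA and control. EIF2AK3 had no second reading, since its other probe set was below the floor on all 3 arrays. ATF6 lay within 0.078 over the 3 arrays in its chosen probe set. Its 3 other probe sets gave 0.31 to 0.45 for ORF against control and −0.09 to 0.23 for shRNA against control. The widest read 10.19 on ORF and 9.74 on control (ratio 0.45, noise SD 0.152). XBP1 read 10.99, 11.16 and 10.97, and the ratios to control were 0.02 and 0.20.

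Among the degradation factors HERPUD1 read 12.22 on ORF, 12.10 on shRNA and 12.42 on control. Control was again highest, with ratios of −0.20 (noise SD 0.099) and −0.32 (noise SD 0.139). EDEM1, a lectin that delivers glycoproteins for degradation, read 9.40, 9.20 and 9.55 in the same order, and its ratio of −0.35 for shRNA against control lay within 2 noise SD (0.231). SEL1L, the partner of SYVN1, read 9.94, 9.76 and 9.81. In all 3 genes shRNA was lowest, but the chosen SEL1L probe set was highest on ORF and the others on control. That SEL1L ratio of 0.13 for ORF against control lay under its noise SD (0.152). The 2 other SEL1L probe sets above the floor were highest on control (−0.35 and −0.30 for ORF against control).

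Small differences of the ER branch leaned to one side. Of its 22 members 18 were below 0 in ORF against control and 17 in shRNA against control, where 49.4% and 51.1% of all genes were, and the medians were −0.092 and −0.091. Both comparisons share the control array, on which 14 of the 22 members were highest and 1 was lowest (36.2% and 31.7% of all genes). Bright genes in general were higher on the control array: among the 3166 genes of highest mean signal, 57.7% were below 0 in ORF against control and 56.6% in shRNA against control, with medians of −0.024 and −0.029, and 43.3% were highest on control. The part of this offset in the lean of the ER branch was not tested.

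The lean was not seen in the other probe sets of the same genes. In the ER branch 14 members had further probe sets above the floor, 28 in all. Of these 28 probe sets, 17 were above 0 and 11 below in ORF against control (median 0.068), and 21 were above and 6 below in shRNA against control (median 0.086). The chosen probe sets of the same 14 members were 4 above and 10 below in each of the 2 comparisons. By the rule of choice the other probe sets of a gene are dimmer than its chosen one. The part of signal level in this contrast was not tested, and these counts were not taken over all genes. Over both branches, 23 members had more than 1 probe set above the floor. All probe sets of a gene lay on the same side of 0 for 7 of the 23 in ORF against control, for 9 in shRNA against control and for 11 in ORF against shRNA. The same share was not taken over all genes. In these members the sign of such small differences thus varied with the probe set that was read.

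A few further probe sets differed by 1.5-fold where the chosen one did not. For XBP1, a dim second probe set read 6.98 on ORF, 7.11 on shRNA and 6.04 on control, ratios of 0.95 and 1.07 (noise SD 0.406 and 0.420), against 0.02 and 0.20 for the bright one. SEL1L had a ratio of −0.89 for shRNA against control (noise SD 0.375) in a probe set at 6.73 on shRNA and 7.62 on control. DNAJB9 had one of −0.74 for ORF against control (7.98 against 8.72, noise SD 0.258). In the ATF4 branch ATF3 (−0.68, noise SD 0.422) and PSAT1 (−0.63, noise SD 0.231) had such a probe set for shRNA against control. Their brighter chosen ones were at 0.28 and 0.02, and the ATF3 ratio of −0.68 lay within 2 noise SD. These 5 probe sets, out of 40 not chosen and above the floor, were named after their values were seen. Their share was not set beside that of all genes.

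**Figure D4:**
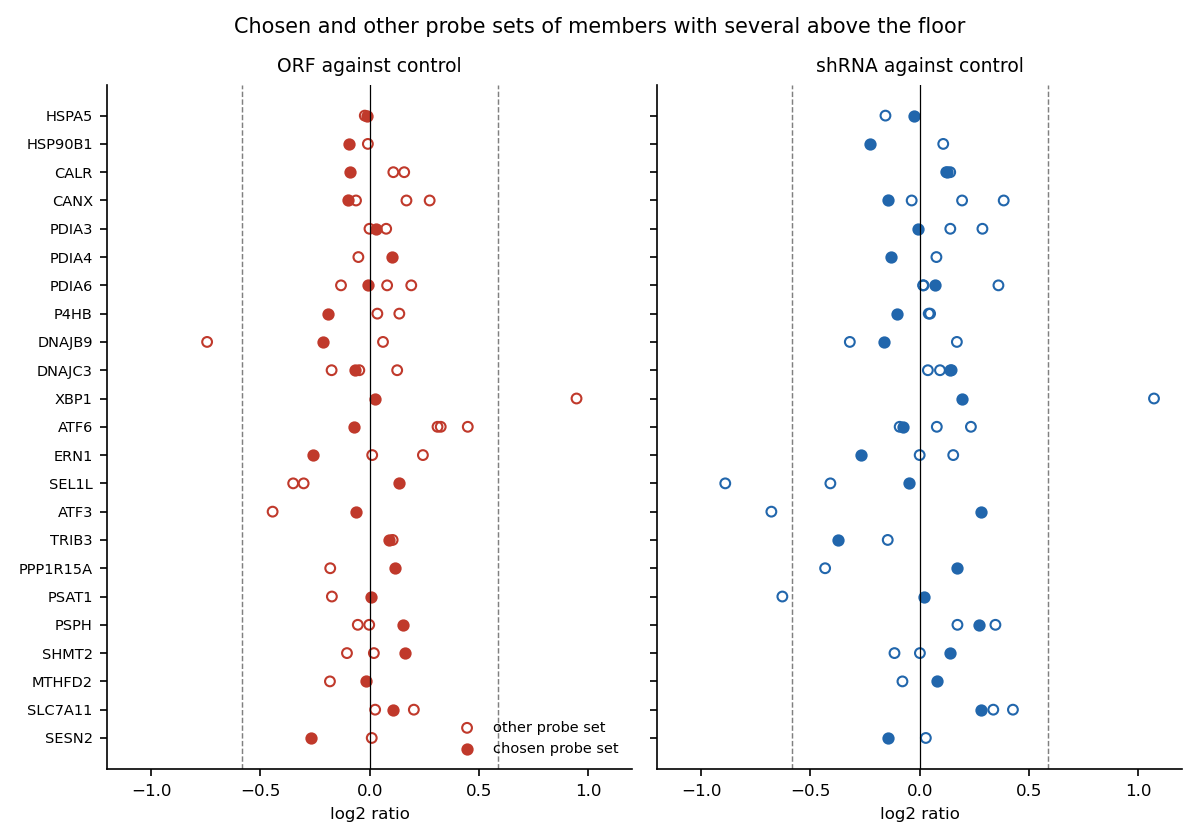
Log2 ratio to control of the chosen probe set (filled) and of each other probe set above the floor (open) for the 23 members with more than 1, for ORF (left) and shRNA (right); dashed lines mark 1.5-fold. All filled points lie between the dashed lines, and the open points of XBP1, SEL1L, DNAJB9, ATF3 and PSAT1 beyond a dashed line are not matched by their filled ones.

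In the ATF4 branch the stress transcription factors and their feedback genes had the widest median range over the 3 arrays, 0.43. That median is the value of NUPR1, whose range is set by the floor, and ATF4 had the same rounded range. The median noise SD of this role was 0.227 for ORF against control. It was 0.099 for the amino acid enzymes and for the transporters, and 0.362 for the other stress targets. DDIT3 (CHOP, the factor that links long ER stress to cell death) read 7.50 on ORF, 7.90 on shRNA and 8.22 on control. ORF was lowest and control highest, so that ORF was 1.65-fold lower than control (log2 ratio −0.72, noise SD 0.281). The shRNA array was also below control, by a ratio of −0.32 that lay near its noise SD of 0.315. DDIT3 had 1 probe set above the floor, and its mean signal was below 8.63, so that with the floor raised to that level it was not measured.

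ATF4 itself, the central factor of the integrated stress response, read 12.87 on ORF, 12.65 on shRNA and 13.08 on control. Control was highest and shRNA lowest, with ratios to control of −0.21 (noise SD 0.080) and −0.43 (noise SD 0.117). Its single probe set leaves no second reading. TRIB3, a pseudokinase induced by ATF4 and CHOP that restrains ATF4, read 11.67, 11.21 and 11.59. Here shRNA alone stood apart, at −0.38 to control (noise SD 0.171), and ORF against shRNA was 0.46 (noise SD 0.143). The second TRIB3 probe set lay on the same side in each comparison. CEBPB, a bZIP partner of ATF4, read 13.32, 13.00 and 13.17, with ORF highest, and ORF against shRNA came to 0.33 (noise SD 0.077). TRIB3 and DDIT3 had the widest ratios of this role, while ATF4 and CEBPB were given in full after their values were seen.

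The other factors gave smaller or noisier values. ATF3, an early repressor of the response, read 8.70, 9.05 and 8.77. PPP1R15A (GADD34, the subunit that lets a phosphatase reverse eIF2 alpha phosphorylation) read 8.72, 8.77 and 8.60. NUPR1, a small stress-induced nuclear protein, read 6.28 on ORF and 6.36 on shRNA and was below the floor on control at 5.73, so that its ratios of 0.35 and 0.43 are set by the floor and lay near its noise SD (0.412 and 0.421). Over the 7 genes of this role the median log2 ratio was 0.087 for ORF against control and −0.17 for shRNA against control.

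**Figure D5:**
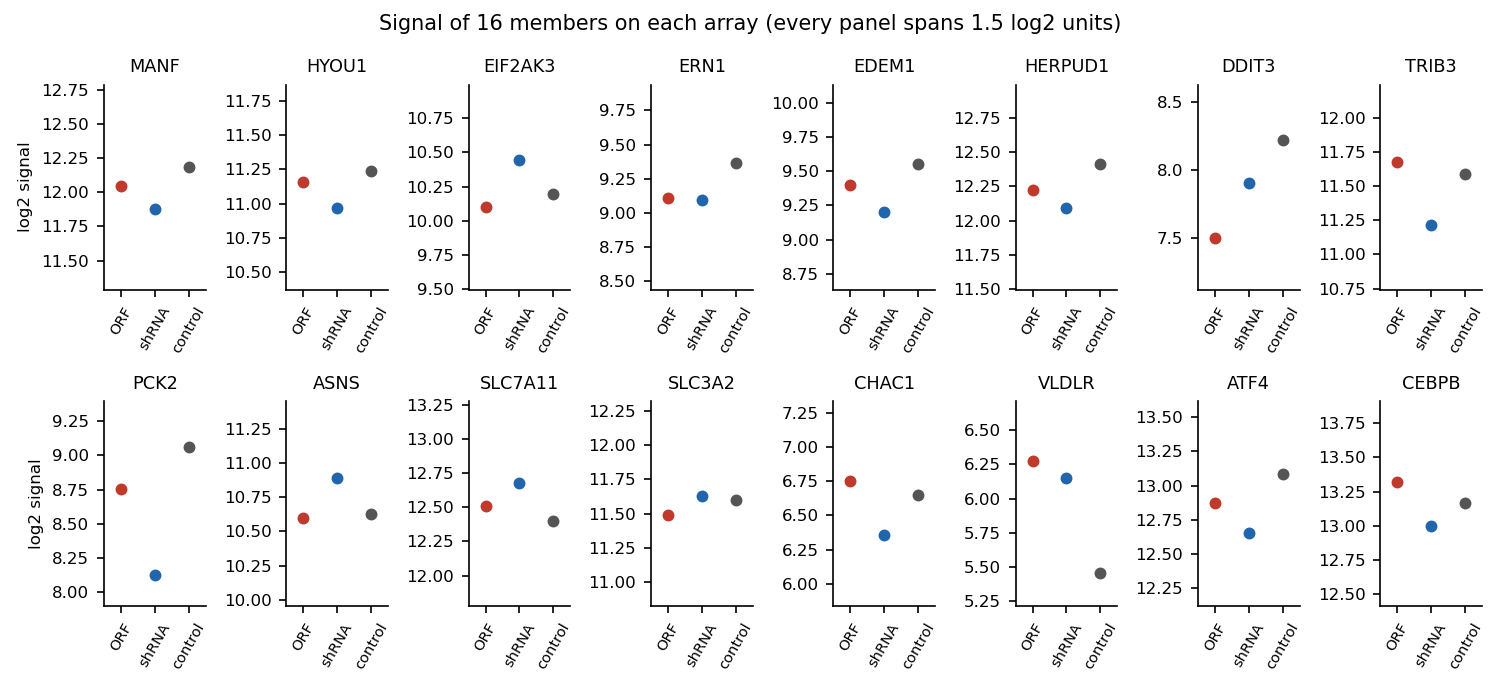
Log2 signal of 16 members on the arrays labelled ORF (red), shRNA (blue) and control (grey), 1 array each; every panel spans 1.5 log2 units, centred on the gene's mean. DDIT3 was lowest on ORF, and PCK2, TRIB3, CEBPB and ATF4 were lowest on shRNA, while VLDLR on control lies under the floor of 5.93.

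The enzymes of serine, one-carbon and asparagine metabolism, which ATF4 induces on amino acid shortage, differed by less than 1.5-fold apart from PCK2. PCK2, the mitochondrial enzyme that makes phosphoenolpyruvate from oxaloacetate, read 8.75 on ORF, 8.13 on shRNA and 9.06 on control. The shRNA array was thus lowest, 1.91-fold below control (log2 ratio −0.94, noise SD 0.259) and 1.54-fold below ORF (0.63, noise SD 0.218), while ORF against control was −0.31 (noise SD 0.238). PCK2 had 1 probe set above the floor. With the floor raised to 8.63 its ratio for shRNA against control became −0.43, and that for ORF against shRNA 0.12. The latter also missed 1.5-fold with arrays set to equal medians.

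ASNS, which makes asparagine and is a classic ATF4 target, read 10.60, 10.89 and 10.62. Here shRNA was highest, with a ratio of 0.27 to control (noise SD 0.173). PSAT1 in serine synthesis lay within 0.018 over the 3 arrays in its bright probe set, and MTHFD2 in mitochondrial folate metabolism within 0.096. PHGDH, the first enzyme of serine synthesis, read 9.50, 9.23 and 9.51, whereas PSPH, the last, read 12.21, 12.33 and 12.06 and SHMT2, which passes the carbon of serine to folate, 12.52, 12.50 and 12.36. On shRNA the signal of PHGDH was thus lowest and that of PSPH highest, so these enzymes of one pathway did not share an order. The median of the 7 enzymes was −0.015 for ORF against control and 0.079 for shRNA against control.

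The amino acid transporters differed by less than 1.5-fold. SLC7A11, the cystine importer that feeds glutathione synthesis, read 12.51 on ORF, 12.68 on shRNA and 12.40 on control. Its ratio for shRNA against control was 0.28 (noise SD 0.139), and its 2 other probe sets gave 0.34 and 0.43, on the same side. SLC3A2, the heavy chain that SLC7A11 and SLC7A5 both need, read 11.49, 11.63 and 11.60, and SLC7A5, the leucine transporter, 13.67, 13.70 and 13.80. In the chosen probe sets, SLC7A11 was the single member more than 2 noise SD higher on shRNA than on control. Other probe sets of PDIA6 (0.36, noise SD 0.117) and XBP1 (1.07, noise SD 0.420) also passed that limit.

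Of the remaining stress targets, DDIT4 (REDD1, an inhibitor of mTORC1) read 13.62, 13.44 and 13.64, with shRNA lowest. ORF against shRNA was 0.18 (noise SD 0.077). CHAC1, which degrades glutathione, read 6.75, 6.35 and 6.65, and its widest ratio, 0.40 for ORF against shRNA, was under its noise SD of 0.435. SESN2, a leucine sensor upstream of mTORC1, read 7.37, 7.50 and 7.64. VLDLR, a lipoprotein receptor induced through PERK and ATF4, read 6.28 and 6.15 and was below the floor on control at 5.46. The ratios of CHAC1, SESN2 and VLDLR in all 3 comparisons lay within 1 noise SD.

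Set directly against each other, the ORF and shRNA arrays differed at 2 noise SD in 7 members. ATF4, CEBPB, TRIB3, PCK2 and DDIT4 were higher with ORF, all of the ATF4 branch, and EIF2AK3 and ASNS were lower. The ATF4 branch was still centred near 0, with a median log2 ratio of −0.038 over 21 members and 9 above 0, and the ER branch likewise with 0.013 over 22 members, of which 9 were below 0 (46.8% of all genes). The ATF4 branch median turned to 0.018 when each gene was read as the median of its probe sets, and to 0.22 over the 13 members left without _x_at and _s_at probe sets, which can match several transcripts.

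The wider pathway was read in the same way. Of 47 further ER genes (translocon, signal peptidase, disulphide and degradation factors), 44 were above the floor. Their median was −0.049 for ORF against control and −0.027 for shRNA against control. In ORF against control 1 of the 44 was at least 1.5-fold higher (3.04% of all genes) and 0 were lower (2.82%). In shRNA against control 1 was higher (3.59%) and 0 were lower (3.3%). The first was CREB3L1, an ER-bound transcription factor, at 7.14 on ORF, 6.14 on shRNA and 6.25 on control (ratio to control 0.89, noise SD 0.429). The second was SEC24D, a COPII coat subunit, at 10.15, 10.80 and 10.12 (ratio 0.68, noise SD 0.182). They were also the 2 genes of the 44 past 1.5-fold in ORF against shRNA. CREB3L1 was higher (2.64% of all genes) and SEC24D lower (2.68%), the latter by −0.65 in log2 ratio. The 2 other SEC24D probe sets above the floor gave −0.14 and 0.31 for shRNA against control, so they did not share a sign.

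Of 51 further genes of the integrated stress response (eIF2 kinases, eIF2B, tRNA synthetases, other ATF4 targets), 45 were above the floor, with medians of −0.023 for ORF against control and −0.037 for shRNA against control. In ORF against control 0 of the 45 were at least 1.5-fold higher (3.04% of all genes) and 1 was lower (2.82%). In shRNA against control 0 were higher (3.59%) and 2 lower (3.3%). CTH, the enzyme that releases cysteine from cystathionine, was the bright one of these. It read 11.08 on ORF, 10.95 on shRNA and 11.55 on control, with ratios of −0.47 (noise SD 0.116) and −0.61 (noise SD 0.171). Its second probe set gave −0.52 and −0.50, so both probe sets put control highest. SHMT1, the cytosolic counterpart of SHMT2, was above the floor on control alone (6.91 against 5.91 and 5.61), and its ratio to control of −0.98 for both arrays is set by the floor. KLHL24 read 8.49, 7.86 and 8.26 and was 1.55-fold higher on ORF than on shRNA (log2 ratio 0.63). It was the 1 gene of the 45 at least 1.5-fold higher in ORF against shRNA (2.64% of all genes), and 0 were lower (2.68%). Its 2 other probe sets above the floor gave 0.17 and 0.36 for that comparison. Read as the median of its probe sets, SEC24D (0.31 for shRNA against control) no longer passed 1.5-fold. Nor did CREB3L1 (0.45 for ORF against control), SHMT1 (−0.49 for both ratios to control) and KLHL24 (0.17 for ORF against shRNA). In these 3 genes, however, probe sets below the floor on all arrays entered the median as a ratio of 0. CREB3L1 and SHMT1 had no other probe set above the floor, so their medians give no second reading.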

How the data were processed

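Total RNA of 3 samples, 1 array each, was turned into biotin-labelled cRNA from its 3′ end, per the labels' protocols, and samples were grouped by the vector they are labelled with. The authors deposited log2 signals for 54675 probe sets. They were made with MAS5, per the submitters' processing notes, in a version and with a target not given in the sources used here. The log2 scale was read from the values, whose linear 2% trimmed mean was 500.07 on each array. Probe sets were named by GEO's platform annotation: 41097 had 1 symbol, 1801 several and 11777 none, and those with several or none were left out. Symbols were matched to RefSeq (GRCh38.p14) for 41043.

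Arrays were scaled to equal trimmed means and floored at the pooled median. Noise SDs came from 6768 pairs of same-gene probe sets within 1 log2 unit in mean, in 20 bins. There was no test, 1 array per group being the limit of precision. Alternatives changed the scaling, the floor, the choice of probe set and the fold threshold. The members and lists were chosen with earlier results of these data known. Named genes were those past 1.5-fold and the 2 members per role with the widest ratio, with up to 6 genes past 1.5-fold per wider list, and exceptions are named as such. The gene table was tested on simulated data. Python 3.11.15, numpy 2.4.6, pandas 2.3.3, scipy 1.17.1 and statsmodels 0.14.6 were used.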

Additional observations from a re-analysis of the deposited data

How the results depend on the processing

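No paired analysis was possible because each group holds 1 array, and no leave-one-out fit was run. Where a gene was read as the median over all its probe sets, one below the floor on all arrays counted as a ratio of 0. A median of list members such as the −0.0924 of the ER branch was taken to have moved where it shifted by more than the members' median noise SD divided by the square root of their number, and to have reversed where its sign changed and the original value was itself larger than that limit.

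The ER branch median (−0.092 for ORF against control, −0.091 for shRNA against control, 0.013 for ORF against shRNA) became −0.12, −0.051 and −0.053 with arrays set to equal medians above the floor. It became −0.048 and −0.030 against control with the median over all probe sets, and −0.068, −0.0062 and −0.077 without _x_at and _s_at probe sets. Read only from the probe sets not chosen, an alternative added after seeing the data, it reversed to 0.058 and 0.078 against control and was −0.071 for ORF against shRNA. The ATF4 branch median (−0.015, 0.018 and −0.038) became 0.026 (quantile normalization) and 0.042 (loess) for ORF against control, and −0.041, 0.057 and −0.10 with equal medians. For shRNA against control it was −0.095 with the median over all probe sets and −0.28 without _x_at and _s_at probe sets, and for ORF against shRNA it reversed to 0.018 and 0.22. From the probe sets not chosen it was −0.043 and −0.079 against control, and 0.015 for ORF against shRNA, a reversal. The cause was not tested.

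At a lower fold (log2 difference of 0.32), 2 of 43 members were higher in ORF against control, NUPR1 and VLDLR (9.67% of all genes). In the same comparison 1 was lower, DDIT3 (9.28%). In shRNA against control 1 was higher (NUPR1; 11.4%) and 4 lower (EDEM1, ATF4, TRIB3, PCK2; 11.4%). In ORF against shRNA 4 were higher (CEBPB, TRIB3, PCK2, CHAC1; 9.82%) and 3 lower (EIF2AK3, DDIT3, ATF3; 9.54%). At 2-fold, and with the floor at the 75th percentile, where 38 members were left, the counts of DDIT3 in ORF against control and of PCK2 in both its comparisons became 0. With equal medians the count for PCK2 in ORF against shRNA was 0. Without a floor, 1 member was higher in ORF against control (VLDLR, 0.82) and 2 in shRNA against control (NUPR1 and VLDLR, the latter 0.69). With the median over all probe sets 1 was higher in shRNA against control (XBP1), and without _x_at and _s_at probe sets 2 were lower (ATF3, PCK2). Signal limits the dim members most: for NUPR1, CHAC1 and VLDLR the noise SD was at least 0.41 in ORF against control, so a 1.5-fold difference there is under 2 noise SD. The sign of a branch median changed in 15 of 48 values under the alternatives, most of them medians within that limit of 0. The sign of a named gene's ratio changed in 4 of 381 values, all of ERN1: its ratio for ORF against shRNA (0.01) under quantile, loess and equal medians, and that for ORF against control (−0.26) with the median over all probe sets (0.011).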
